A study of Gallus gallus with 9 samples.

Results

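Chromosome 16 is the microchromosome that carries the chicken major histocompatibility complex (MHC). The genes described here are those the deposited table places on chromosome 16 under an Ensembl identifier and that reached 1 FPKM in at least 3 of the 9 libraries. They number 82, out of 145 Ensembl genes on the chromosome and 25016 genes in the table. FPKM gives the fragments of a gene relative to its length and to the size of the library. The tissue was thymus of Ross 308 broiler chicks aged 21 days. The 3 GEN libraries came from chicks that received lipopolysaccharide and genistein. The 3 LPS libraries came from chicks that received lipopolysaccharide alone, and the 3 CON libraries from chicks on the basic diet. Lipopolysaccharide comes from the outer membrane of Gram-negative bacteria and provokes innate immune responses, and genistein is an isoflavone of soy. The labels give no dose, route, sex, MHC type or animal identity, so the p-values reflect only how far these samples spread, and part of that spread may be technical.

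MHC molecules display peptides to T cells, class I molecules to CD8 T cells and class II molecules to CD4 T cells, and both kinds shape the T cell repertoire in the thymus. In the chicken the classical B region is compact, with class I genes beside the TAP peptide transporter and class II genes beside tapasin, and B-G and lectin-like genes nearby. A second region, Y, holds further class I-like and lectin-like genes, and the ribosomal RNA genes lie on the same chromosome. The chicken MHC is known for many haplotypes that differ in sequence and gene content between birds. The RefSeq table of the GRCg7b assembly lists 331 genes on chromosome 16, among them BF1, BF2, TAP1, TAP2, TAPBP, BLB1, BLB2, DMA, DMB1, DMB2, BG1, C4, CENPA, BRD2 and RACK1, with 16 symbols of the MHCY family and 9 of the YLEC family. That table pairs 0 of the 25016 identifiers with a symbol. Members are therefore given by identifier and GRCg6a position, with no role assigned, and thymic markers could not be checked. Which members are near-identical copies that share fragments is likewise not known.

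The libraries held 19618047 to 25863282 gene fragments. CON 3 was unlike the rest. Across the 13506 genes past the filter, on the log2(FPKM + 1) scale, it correlated with each other library at 0.877 to 0.888, and those 8 correlated among themselves at 0.957 to 0.984. Mitochondrial genes took 3.94% of its fragments and 1.43% to 1.93% elsewhere. The total by which the authors scaled it was 0.767 times its fragment sum, against 1.01 to 1.09 times in the others, which raises all its FPKM values alike. CON 3 was the highest of the 9 libraries for 42 of the 82 members (51.2%) and for 35.8% of all genes tested. It was the lowest for 10 members (12.2%) and for 35.3% of all genes tested. Fold changes against CON are therefore also given without it, as are many of the counts and medians.

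Members were more abundant towards the far end of the sequenced chromosome. The 82 genes start between positions 501635 and 2798256 of chromosome 16, 45 on the plus and 37 on the minus strand. The 27 members that start beyond 2.5 Mb supplied 89.7% of all member fragments and had a median level of 35.9 FPKM. The medians were 7.37 FPKM for the 26 members from 2 to 2.5 Mb, 3.85 for the 16 from 1.5 to 2 Mb, 2.17 for the 5 from 1 to 1.5 Mb and 2.36 for the 8 from 0.5 to 1 Mb. All 8 members with a mean of at least 100 FPKM start beyond 2.5 Mb. Such genes made up 9.76% of the members and 5.78% of all genes tested, while the median member was lower than the median gene tested, at 6.24 against 11.2 FPKM.

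**Figure D1:**
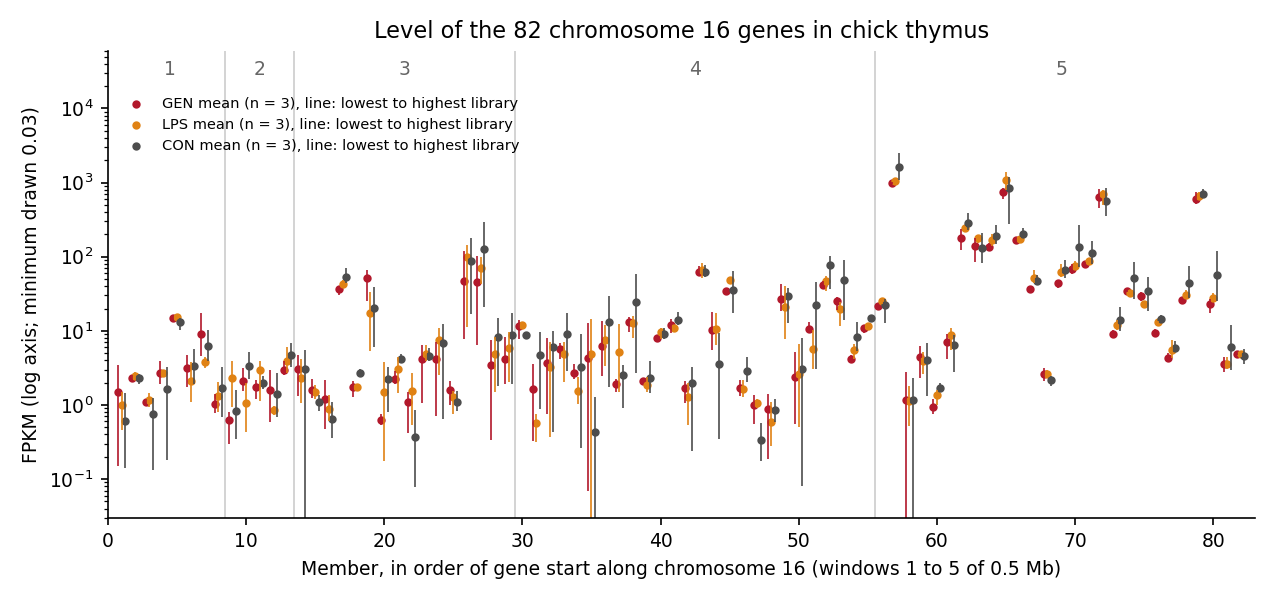
Level of each of the 82 members in FPKM on a log axis, in order along the chromosome, for GEN, LPS and CON (point: mean of 3 libraries, line: lowest to highest library, cut at 0.03). The 8 members with a mean of at least 100 FPKM all lie in window 5, which starts at 2.5 Mb.

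ENSGALG00000000122 (chromosome 16, 2525327 to 2529817) was the most abundant member. It measured 1031, 954 and 956 FPKM in GEN, 1131, 959 and 1065 FPKM in LPS, and 1260.5, 1079 and 2476 FPKM in CON. Every GEN library lay below every CON library, and CON 3 lay far above the other 8 libraries. ENSGALG00000030940 (2572332 to 2573868) measured 743, 856 and 606 FPKM in GEN, 1377, 1048 and 802 FPKM in LPS, and 275, 1072 and 1177 FPKM in CON. Here CON 1 was the low library, and the other 8 lay between 606 and 1377 FPKM. The gene lies inside the span of ENSGALG00000033932 on the same strand, so its fragments may not be separate from those of that gene. ENSGALG00000041471 (2738933 to 2745467) measured 749.9, 558 and 509 FPKM in GEN, 746, 603 and 635 FPKM in LPS, and 826, 634 and 626 FPKM in CON, and its groups overlapped. ENSGALG00000041380 (2606528 to 2609057), which overlaps no other gene model, measured 451, 811 and 638 FPKM in GEN, 493, 786 and 803 FPKM in LPS, and 358, 846 and 485 FPKM in CON. The first library of each group was its lowest, and the groups overlapped throughout. These 4 genes held 64.4% of the fragments of all members, and each lay at or above the 99th percentile of level among the genes tested.

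The next 6 by level lay close together, between 2565094 and 2605843. ENSGALG00000000141 (2565094 to 2566926) measured 122, 237 and 179 FPKM in GEN, 239, 233 and 261 FPKM in LPS, and 226, 248 and 385 FPKM in CON. GEN 1 was the lowest library, and the highest GEN library lay within the ranges of both other groups. ENSGALG00000000156 (2574359 to 2580734) was among the steadiest, at 181, 155 and 161 FPKM in GEN, 183, 166 and 176 FPKM in LPS, and 187, 182 and 242 FPKM in CON. ENSGALG00000008022 (2567828 to 2571359) ranged from 126 to 152 FPKM in GEN, from 139.7 to 199.9 FPKM in LPS and from 149 to 265 FPKM in CON. ENSGALG00000033932 (2565405 to 2595262) ranged from 85.6 to 177 FPKM in GEN, from 153 to 195 FPKM in LPS and from 81.0 to 212 FPKM in CON. Its span covers several of these genes, 5 models on its own strand and 3 on the other overlap it, and no strand setting is given, so its fragments may not be separate from theirs. ENSGALG00000029381 (2592345 to 2605843) and ENSGALG00000035075 (2596216 to 2601012) overlap on opposite strands. They lay at 59.3 to 80.7 and 76.3 to 83.6 FPKM in GEN, at 68.7 to 87.1 and 84.0 to 90.5 FPKM in LPS, and, apart from CON 3 with 264 and 162 FPKM, at 72.9 to 73.0 and 79.6 to 92.2 FPKM in CON.

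**Figure D2:**
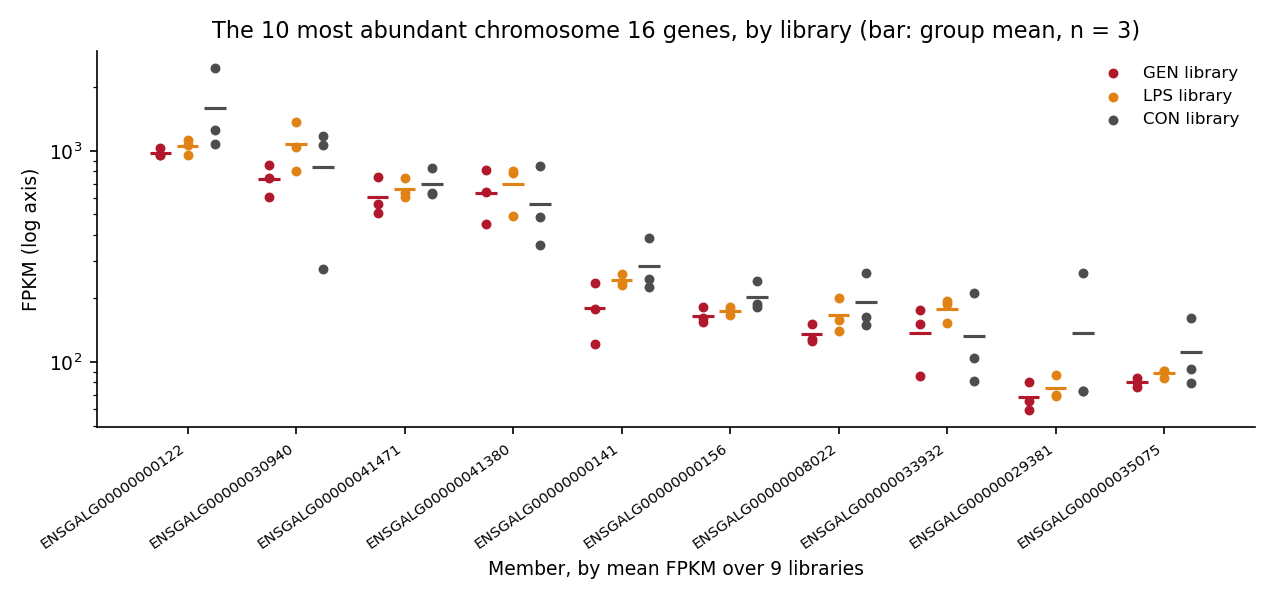
FPKM on a log axis of the 10 most abundant members, by library, for GEN, LPS and CON (points: libraries, bars: means of 3). For ENSGALG00000000122 all 3 GEN libraries (954 to 1031 FPKM) lie below the 3 CON libraries, and for ENSGALG00000030940 the single low point is CON 1 at 275 FPKM.

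Members together took 0.835%, 0.900% and 0.793% of the gene fragments in GEN 1 to 3, 0.992%, 0.925% and 0.933% in LPS 1 to 3, and 0.834%, 0.950% and 1.04% in CON 1 to 3. Every GEN library lay below every LPS library, and the LPS range lay within that of CON. GEN 3 was the lowest of the 9 and CON 3 the highest. The widest 95% Wilson interval was 1.04% to 1.05%, for CON 3, and such intervals cover counting error only. Without the 10 most abundant members the shares were 0.144%, 0.149% and 0.131% in GEN, 0.176%, 0.156% and 0.142% in LPS, and 0.143%, 0.146% and 0.205% in CON, and GEN and LPS overlapped. In whole thymus, fewer cells of a type and less RNA per cell cannot be told apart.

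Between libraries of one group the members spread more widely than the genes tested as a whole. The median within-group SD on the log2(FPKM + 1) scale was 0.49 for the members and 0.29 for all genes tested, and without CON 3 it was 0.39 and 0.16. At a mean of at least 10 FPKM the median SD without CON 3 was 0.25 for 34 members and 0.13 for 7183 genes tested. The range from the lowest to the highest library was taken over all libraries whatever their group, so it also holds differences between groups. A range of at least 2 on the log2(FPKM + 1) scale is at least 4-fold in FPKM and more than that in low genes. It was found in 27 of 82 members (32.9%) and in 11.5% of all genes tested. Without CON 3 these shares were 18 of 82 (22%) and 2.82%, and at a mean of at least 10 FPKM they were 20.6% and 1.28%. Counted over all 90 genes tested on chromosome 16, predicted genes included, the share without CON 3 was 21.1%. That was the highest of the 33 chromosomes with at least 50 genes tested, followed by chromosome 31 with 8.75%. These are descriptions, and the excess was not tested.

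The wide ranges were gathered in the middle of the chromosome. Of the 18 members, 6 start from 1.5 to 2 Mb and 10 from 2 to 2.5 Mb, while 1 of the 27 members beyond 2.5 Mb, ENSGALG00000030940, was among them, and 1 starts before 1 Mb, ENSGALG00000042708. Median SD without CON 3 was 0.64 and 0.54 in those 2 windows and 0.22 beyond 2.5 Mb. In the stretch of 15 neighbouring members that start between 1967655 and 2082890, picked after the values were seen, 10 had such a range. Over the whole chromosome, 63 of the 82 members overlap another gene model and 44 lie inside the span of one. Whether overlap affected the counted fragments or these ranges was not tested.

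**Figure D3:**
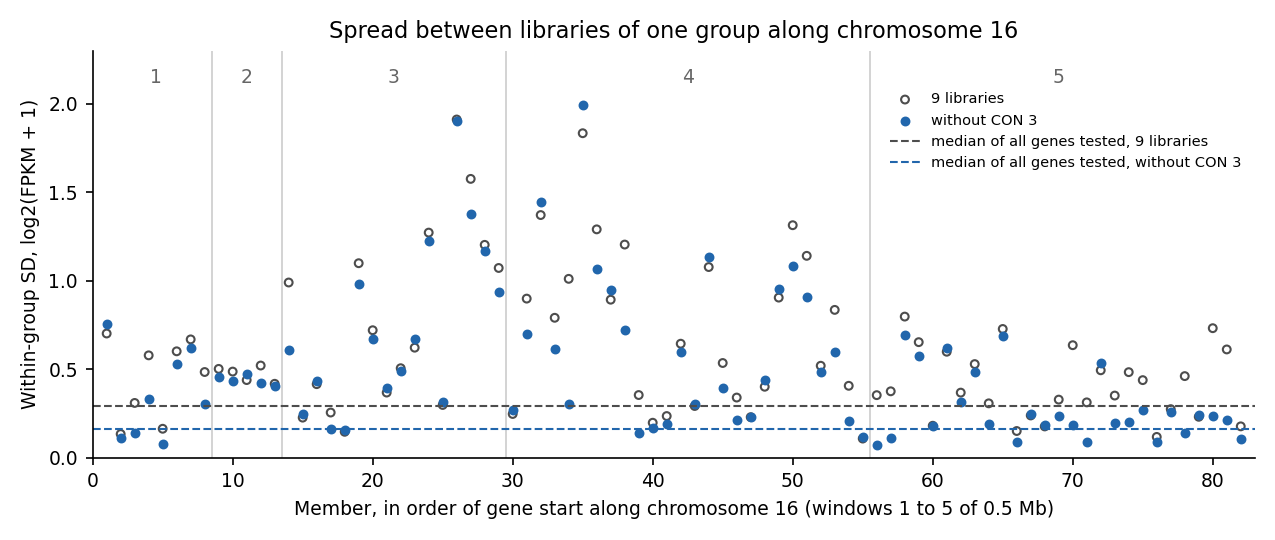
Within-group SD on the log2(FPKM + 1) scale for each member in order along the chromosome, with all 9 libraries (open) and without CON 3 (filled), and the medians of all genes tested (dashed, 0.29 and 0.16). The highest values lie in windows 3 and 4, from 1.5 to 2.5 Mb.

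ENSGALG00000048880 (1974068 to 1983830) had the largest within-group SD over the 9 libraries, 1.91. It measured 7.71, 119 and 15.2 FPKM in GEN, 145, 141 and 11.1 FPKM in LPS, and 66.5, 16.8 and 179 FPKM in CON. Each group held both high and low libraries, and fragments ran from 139 in GEN 1 to 3269 in LPS 1. ENSGALG00000052686 (2043313 to 2045183) was nearly on or off. GEN 2 gave 12.6 FPKM from 310 fragments and LPS 3 gave 14.6 FPKM from 424 fragments, CON 1 gave 1.28 FPKM from 33, and the other 6 libraries held 0 to 2 fragments each. It lies inside the spans of 5 other gene models, and its 2 high libraries belong to different groups.

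ENSGALG00000044569 (1985544 to 1987050) measured 27.3, 103 and 6.40 FPKM in GEN, 69.2, 99.7 and 42.9 FPKM in LPS, and 21.0, 71.9 and 289.5 FPKM in CON. Its neighbour ENSGALG00000052376 (1987808 to 1995627) measured 2.61, 7.51 and 0.336 FPKM in GEN, 1.48, 8.13 and 4.80 FPKM in LPS, and 1.796, 8.13 and 14.98 FPKM in CON. ENSGALG00000044598 (2061906 to 2093520) measured 2.78, 13.7 and 2.45 FPKM in GEN, 3.37, 12.1 and 7.41 FPKM in LPS, and 1.77, 8.73 and 29.4 FPKM in CON. In all 3 genes GEN 2, LPS 2 and CON 3 were the highest of their groups. GEN 3 and CON 1 were the lowest of their groups. ENSGALG00000051088 (1967655 to 1973720), the first gene of the stretch, shared the high libraries and had its lowest values in the first library of each group, at 0.718 FPKM in GEN 1, 2.51 FPKM in LPS 1 and 0.649 FPKM in CON 1. These 4 genes were put side by side after their values were seen.

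Other wide-ranging members, further along and inside the stretch, had different orders of libraries. ENSGALG00000049626 (2439178 to 2443648) measured 42.7, 18.8 and 18.3 FPKM in GEN, 40.2, 7.78 and 14.02 FPKM in LPS, and 37.8, 12.9 and 37.7 FPKM in CON. GEN 1, LPS 1, CON 1 and CON 3 lay at 37.7 to 42.7 FPKM, and none of the other 5 libraries exceeded 18.8 FPKM. ENSGALG00000049665 (2444068 to 2445718), next to it on the other strand, measured 5.26, 0.556 and 1.34 FPKM in GEN, 6.57, 0.4998 and 0.780 FPKM in LPS, and 1.05, 0.0803 and 8.04 FPKM in CON. Its values rest on 1 to 89 fragments, and CON 1 was no longer among the high libraries. The next member, ENSGALG00000041845 (2446991 to 2453265), did not keep that order. It measured 9.26, 9.58 and 12.95 FPKM in GEN, 3.75, 3.08 and 10.4 FPKM in LPS, and 19.4, 3.02 and 45.1 FPKM in CON. ENSGALG00000040185 (2341445 to 2347657) lay at 5.43 to 17.7 FPKM in GEN and at 6.40 to 17.2 FPKM in LPS. In CON it measured 0.343, 9.26 and 1.02 FPKM, with 12 fragments in CON 1 and 25 in CON 3 against 354 in CON 2. ENSGALG00000054397 (2019868 to 2064486) starts inside the stretch described before. It measured 2.20, 7.92 and 0.764 FPKM in GEN, 7.16, 0.367 and 2.13 FPKM in LPS, and 9.999, 0.425 and 7.54 FPKM in CON, again with high and low libraries in each group.

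**Figure D4:**
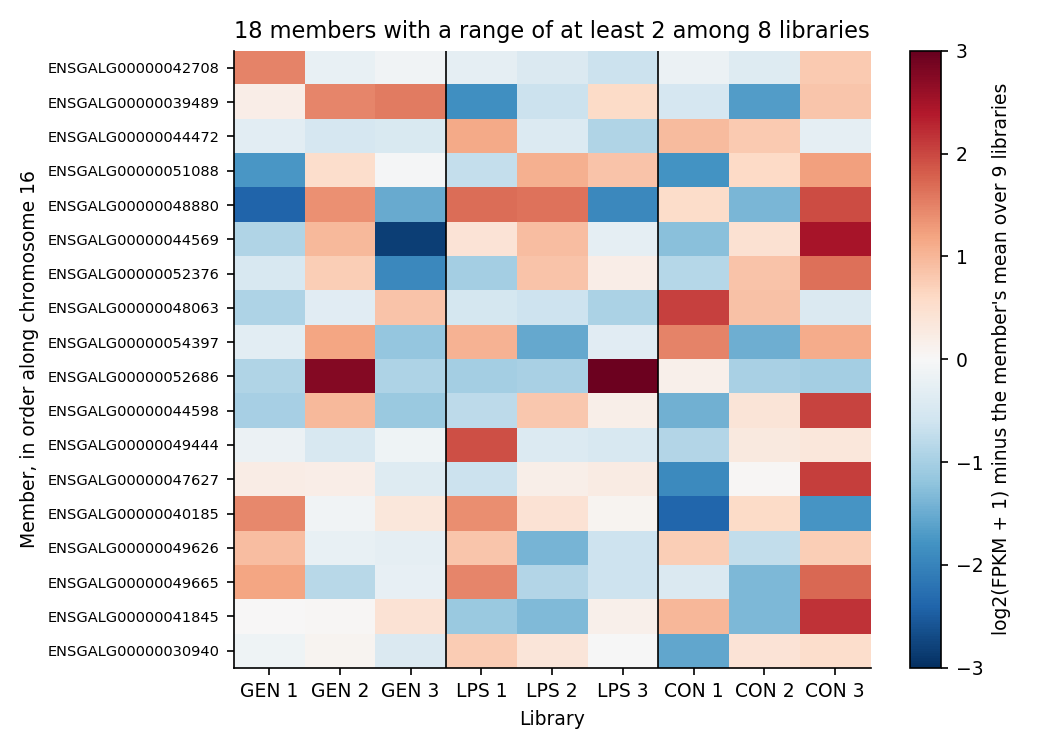
Deviation of log2(FPKM + 1) from each member's mean over 9 libraries, for the 18 members whose range among the 8 libraries other than CON 3 was at least 2, in order along the chromosome. High (red) and low (blue) libraries occur within each of GEN, LPS and CON, as for ENSGALG00000048880. ENSGALG00000052686 is high only in GEN 2 and LPS 3.

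Against this spread, limma called 0 of the 82 members at an adjusted p under 0.05 in each of the 3 comparisons, and 0% of all genes tested. limma-voom on recovered fragments also called 0 members, and its share of all genes tested is not given here. At an unadjusted limma p under 0.05 there were 3 members (3.66%, against 3.24% of all genes tested) in GEN vs LPS, 10 (12.2%, against 10.8%) in GEN vs CON and 7 (8.54%, against 4.52%) in LPS vs CON. The lowest adjusted p of a member was 1.00 in GEN vs LPS, 0.452 in GEN vs CON and 0.637 in LPS vs CON. Without CON 3 these were 0.257, 0.168 and 0.653, still with 0 members and 0% of all genes tested called. The median standard error of a member's log2 fold change was 0.36, against 0.23 for all genes tested. A miss of the threshold at this spread does not show that levels were alike.

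GEN against CON sets both treatments together against the basic diet, and it held the lowest member p-values. ENSGALG00000043052 (2662153 to 2664893) measured 8.94, 10.5 and 8.99 FPKM in GEN, 13.7, 12.7 and 12.9 FPKM in LPS, and 14.2, 13.1 and 16.6 FPKM in CON. All GEN libraries were lower than all 6 others, and the gene overlaps no other model. Its log2 fold change was -0.58 (SE 0.14), with an unadjusted p of 0.00244 and a limma adjusted p of 0.452. Without CON 3 the log2 fold change was -0.49. ENSGALG00000037170 (2499936 to 2503957) measured 11.2, 9.43 and 11.9 FPKM in GEN, 12.3, 10.8 and 12.2 FPKM in LPS, and 14.7, 15.2 and 15.2 FPKM in CON. Here the CON libraries were the ones apart, above both other groups. The log2 fold change was -0.44 (SE 0.13), -0.44 without CON 3 and -0.25 with fragment sums as the scale.

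ENSGALG00000050132 (1774847 to 1901383) shared that arrangement, at 1.798, 1.30 and 2.11 FPKM in GEN, 1.84, 1.74 and 1.69 FPKM in LPS, and 3.09, 2.56 and 2.56 FPKM in CON. Its log2 fold change was -0.46 (SE 0.17), and -0.49 without CON 3. The gene overlaps 5 other gene models, 3 of them on its own strand, so its fragments may not be its own. ENSGALG00000037170 and ENSGALG00000050132 were all the members with CON apart above both other groups (2.44%, against 3.29% of all genes tested). On the low side 0 members had CON apart, where 1.97% of all genes tested did. ENSGALG00000038595 (1750463 to 1753075) measured 40.1, 30.8 and 37.5 FPKM in GEN, 48.0, 38.0 and 42.0 FPKM in LPS, and 46.9, 43.9 and 70.6 FPKM in CON. The GEN libraries lay below the CON libraries, and LPS overlapped with both. Its log2 fold change was -0.54 (SE 0.20), and -0.33 without CON 3. ENSGALG00000000122, the most abundant member, averaged 980 ± 43.9 FPKM in GEN and 1605 ± 760 FPKM in CON (SD, n = 3 each), a log2 fold change of -0.61 (SE 0.29). It was -0.25 without CON 3, -0.10 with quantile normalization and -0.85 without CON 2. None of these genes passed, each with a limma adjusted p of 0.452.

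In GEN vs CON, 13 of the 82 members (15.9%) had every GEN library below every CON library, where 12.3% of all genes tested did, and 0 members had them above, where 8.83% did. Without CON 3 the counts were 16 lower and 5 higher, beside 20.4% and 15.6% of all genes tested. At an unadjusted limma p under 0.05, 8 members were lower and 2 higher, where 6.12% and 4.68% of all genes tested were. The split differed between scalings. With quantile normalization it was 8 lower and 0 higher, beside 5.92% and 4.18% of all genes tested. It was 2 lower and 3 higher with fragment sums as the scale, which moved the median of all genes to 0.18 on the log2 scale. All genes tested then split into 2.44% lower and 8.4% higher. Without CON 2 it was 13 lower and 3 higher, beside 11.1% and 8.76% of all genes tested. The split was 4 and 1 without GEN 1 (4.88% and 1.22%, beside 4% and 3.72%). It was 6 and 2 without GEN 2 (7.32% and 2.44%, beside 2.64% and 2.98%) and 4 and 1 without GEN 3 (4.88% and 1.22%, beside 2.58% and 2.44%). The median member fold change was -0.19, against 0.01 for all genes tested, and without CON 3 it was -0.06 against -0.02. Lower members made up 15.9% by non-overlap and 9.76% by unadjusted limma p, against 12.3% and 6.12% of all genes tested. Without CON 3 these shares were 19.5% and 9.76%, against 20.4% and 9.36%. Higher members made up 0% and 2.44% with all libraries, against 8.83% and 4.68%. Whether such shares differ was not tested.

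**Figure D5:**
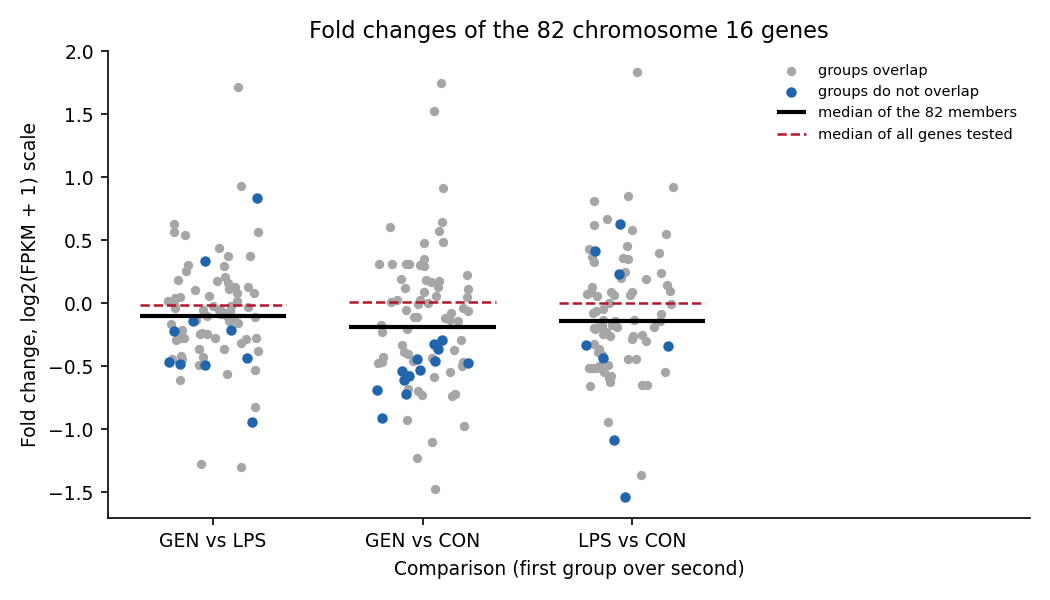
Fold changes of the 82 members on the log2(FPKM + 1) scale in 3 comparisons, the first group over the second (blue: groups do not overlap). Medians of the members (black) were -0.10 in GEN vs LPS, -0.19 in GEN vs CON and -0.14 in LPS vs CON, and those of all genes tested (red, dashed) were -0.02, 0.01 and 0.00.

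GEN against LPS sets genistein against its absence in chicks that all received lipopolysaccharide. ENSGALG00000043052, given above, had the lowest p here too, with a log2 fold change of -0.43 (SE 0.14). ENSGALG00000000158 (2584405 to 2586614) measured 37.1, 40.5 and 32.6 FPKM in GEN, 65.2, 44.5 and 45.6 FPKM in LPS, and 56.0, 42.4 and 41.4 FPKM in CON. ENSGALG00000038393 (2589290 to 2592336), a neighbour on the same strand, measured 48.3, 46.1 and 37.2 FPKM in GEN, 78.9, 54.1 and 53.95 FPKM in LPS, and 51.4, 55.0 and 90.1 FPKM in CON. ENSGALG00000033932, on the plus strand like these genes, spans both of them. Whether any counted fragments belong to that longer gene instead was not tested. In both ENSGALG00000000158 and ENSGALG00000038393 GEN lay below all 6 other libraries, while LPS and CON overlapped. Their log2 fold changes in GEN vs LPS were -0.47 (SE 0.19) and -0.48 (SE 0.24), and without LPS 1 they were -0.29 and -0.30. ENSGALG00000043052, ENSGALG00000000158 and ENSGALG00000038393 were all the members with GEN apart from both other groups on the low side (3.66%, against 4.62% of all genes tested). On the high side 0 members had GEN apart, where 3.14% of all genes tested did.

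ENSGALG00000054162 (1077028 to 1078980) measured 0.295, 0.781 and 0.802 FPKM in GEN, 2.10, 3.88 and 0.953 FPKM in LPS, and 0.563, 0.350 and 1.61 FPKM in CON, from 11 to 160 fragments, a log2 fold change of -0.94 (SE 0.37), which ran from -1.73 with limma-voom to -0.61 without LPS 2. It passed the filter with 2 LPS libraries and CON 3 at 1 FPKM or more. Higher in every GEN than in every LPS library were ENSGALG00000042708 (850033 to 852546), at 17.3, 4.57 and 5.06 FPKM in GEN, 4.39, 3.85 and 3.18 FPKM in LPS, and 4.75, 3.97 and 10.2 FPKM in CON, and ENSGALG00000039742 (2626854 to 2630699), at 33.0, 24.96 and 30.7 FPKM in GEN, 22.9, 21.6 and 24.7 FPKM in LPS, and 18.7, 31.8 and 53.1 FPKM in CON. Their log2 fold changes were 0.83 (SE 0.47) and 0.34 (SE 0.32), and without GEN 1, the one high GEN library of the first, that gene's was 0.28. None of these members passed, each with a limma adjusted p of 1.00.

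Groups did not overlap in GEN vs LPS for 8 lower members (9.76%, against 11.3% of all genes tested) and 2 higher members (2.44%, against 8.91%). At an unadjusted limma p under 0.05, 3 members were lower and 0 higher, where 1.5% and 1.74% of all genes tested were. CON 3 is in neither group here and acts only on the pooled estimate of spread. Leaving it out, 7 members were lower and 2 higher at that p, beside 7.37% and 6.32% of all genes tested, and with only the 6 libraries compared the counts were 8 and 3, beside 6.87% and 5.74%. They were 4 and 2 without LPS 3, beside 1.19% and 1.29%, and 4 and 1 without CON 2, beside 1.52% and 1.65%. The median member fold change was -0.10, against -0.02 for all genes tested.

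LPS against CON sets lipopolysaccharide alone against the basic diet. ENSGALG00000000081 (2367597 to 2478250), a low gene, measured 1.02, 0.910 and 1.22 FPKM in LPS, 0.564, 0.265 and 0.174 FPKM in CON, and 1.38, 0.546 and 1.08 FPKM in GEN, from 8 to 90 fragments. No CON library reached 1 FPKM, so the gene passed the filter only through LPS and GEN libraries, where it was higher. Its order against CON is therefore not independent of the filter. The LPS libraries lay above the CON libraries, with a log2 fold change of 0.63 (SE 0.21), and 0.54 without CON 3. That value ran from 0.43 with quantile normalization to 1.95 with limma-voom. Its span of over 100 kb overlaps 15 other gene models, so its fragments may not be its own. ENSGALG00000047380 (2001694 to 2114403) measured 12.4, 11.9 and 12.1 FPKM in LPS, 9.21, 8.54 and 8.82 FPKM in CON, and 13.0, 13.98 and 7.73 FPKM in GEN. Its log2 fold change was 0.42 (SE 0.20), 0.41 without CON 3 and 0.63 with limma-voom. The LPS and CON libraries were tight, whereas GEN 3 lay below all CON libraries. The gene overlaps 12 other gene models. ENSGALG00000051428 (633344 to 641956) measured 16.2, 14.9 and 14.797 FPKM in LPS, 14.788, 13.995 and 10.3 FPKM in CON, and 16.1, 14.3 and 14.1 FPKM in GEN. LPS 3 and CON 1 were nearly tied, so the groups only just failed to overlap. Its log2 fold change was 0.23 (SE 0.15). It was 0.08 without CON 3 and ran from 0.049 with library quality weights to 0.42 with limma-voom.

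Of the members lower in LPS, ENSGALG00000054241 (1109836 to 1111994) measured 0.756, 0.427 and 1.997 FPKM in LPS, 2.59, 2.26 and 5.15 FPKM in CON, and 3.19, 1.54 and 1.61 FPKM in GEN. It is short, with 396 bases and 4 to 32 fragments a library. Its log2 fold change was -1.09 (SE 0.36), which ran from -1.71 with a pseudocount of 0.1 to -0.66 with library quality weights. Without CON 3 it was -0.81. ENSGALG00000048063 (2019863 to 2057283) measured 0.754, 0.632 and 0.319 FPKM in LPS, 9.54, 3.63 and 0.880 FPKM in CON, and 0.323, 1.00 and 3.59 FPKM in GEN. CON 1 was the highest library and CON 3 little above LPS, so that the log2 fold change was -1.54 (SE 0.63), -2.17 without CON 3 and -0.92 without CON 1. No LPS library reached 1 FPKM, so the gene passed the filter only through CON and GEN libraries, among them GEN 2 at 1.00 FPKM. Its order against CON is therefore not independent of the filter. The gene overlaps 7 other gene models. ENSGALG00000050132 and ENSGALG00000037170, given above, had, against CON, LPS log2 fold changes of -0.44 (SE 0.17) for the first and -0.33 (SE 0.13) for the second. Without CON 3 they were -0.47 and -0.32, and the second was -0.16 with fragment sums as the scale. The comparisons of GEN and of LPS with CON share the CON libraries. None of the 7 members named for this comparison passed, each with a limma adjusted p of 0.637. They were named for groups that do not overlap and are not the same 7 as those at an unadjusted limma p under 0.05. ENSGALG00000040185, among the latter, had a log2 fold change of 1.83, and 1.54 without CON 3. Its groups overlapped, and it did not pass either.

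In LPS vs CON, 5 members (6.1%) had every LPS library below every CON library, where 6.76% of all genes tested did, and 3 members (3.66%) had them above, where 5.47% did. Without CON 3 the counts were 6 lower and 8 higher, beside 12.4% and 9.68% of all genes tested. At an unadjusted limma p under 0.05, 4 members were lower and 3 higher, where 2.07% and 2.45% of all genes tested were. These counts were 7 lower and 5 higher without CON 2, beside 5.75% and 5.86% of all genes tested, and 1 and 1 without LPS 2, beside 1.14% and 1.6%. They were 1 and 5 with fragment sums as the scale, beside 0.777% and 3.86%, and 1 and 5 with limma-voom on recovered fragments, beside 0.696% and 3.86%. The median member fold change was -0.14, against 0.00 for all genes tested. Without CON 3 the median turned to 0.06, against -0.01, so it had no direction that held without that library.

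No member kept a strict order of the 3 groups. Non-overlapping groups with GEN highest, LPS between and CON lowest were found for 0 of 82, where 0.244% of all genes tested had them. The reverse order was found for 0 of 82, where 0.674% had it.

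Of the 63 Ensembl genes on chromosome 16 that did not reach the filter, 19 were at 0 in every library, 47 had no library at 1 FPKM, and the highest single value was 3.80 FPKM, for ENSGALG00000050439 in CON 3. Just outside were 12 genes with 2 libraries at 1 FPKM or more, and just inside 6 members with 3, among them ENSGALG00000044472 (1873782 to 1884480). It measured 0.743, 0.541 and 0.591 FPKM in GEN, 3.75, 0.625 and 0.173 FPKM in LPS, and 3.20, 2.72 and 0.803 FPKM in CON. No member passed through the 3 libraries of one group alone. In 55 of the 82, all 9 libraries reached 1 FPKM.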

How the data were processed

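Per the labels' protocols, thymus RNA was prepared with Trizol and sequenced from TruSeq libraries (Illumina). The submitters' processing notes name CASAVA 1.8, featureCounts 1.5.0-p3 and the build GRCg6a. For the aligner, the annotation release, strandedness and multi-mapped reads, the setting is not given in the sources used here. FPKM is the unit of the deposited values, scaled by the authors to gene length and library size. Columns of samples from elsewhere number 0. Whole fragments were recovered from FPKM and gene length (100% of values above 0 whole within 0.01).

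A gene was tested if 3 or more libraries reached 1 FPKM, which 13506 of 25016 did, with limma 3.58.1 in R 4.3.3. One fit to log2(FPKM + 1), a pseudocount of 1, took all 9 libraries, with a mean-dependent prior variance. The two-sided p-values of the 13506 genes were adjusted together by Benjamini-Hochberg, and 0.05 was the threshold. On the log2(FPKM + 1) scale the changes of low genes come out too small. The exact test of 3 against 3 libraries cannot go below 0.1.

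Members named in the text are the 10 most abundant, up to 4 higher and 4 lower per comparison with non-overlapping groups and the lowest p, the 5 with the largest within-group SD, and others said to be chosen after their values were seen. ENSGALG00000040185 and ENSGALG00000049626 and the other wide-ranging genes beside them are of the last kind. The members and lists were chosen with earlier results of these data known. Lists of gene symbols and cell type markers could not be used. Leaving out libraries, other scalings, filters and pseudocounts, library weights, limma-voom and a replicate block were tried. The replicate numbers have no stated meaning and were not used to pair libraries. Python 3.11.15 and matplotlib 3.10.9 drew the figures.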

Additional observations from a re-analysis of the deposited data

How the results depend on the processing

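Chromosome 16 members called at an adjusted p under 0.05 stayed at 0 in each of the 3 comparisons under all 20 alternative settings, including 0 to 0 when each library was left out in turn and 0 with a replicate block. Of all genes tested, 0% were called in the main fit and without CON 3. That share is not given for the other settings, so 0 members there cannot be set against all genes. The lowest adjusted p of a member under any alternative came with library quality weights, at 0.167 in GEN vs LPS, 0.0648 in GEN vs CON and 0.0868 in LPS vs CON. Members at an unadjusted p under 0.05 then numbered 6 lower and 1 higher in GEN vs LPS (7.03% and 6.41% of all genes tested), 12 and 5 in GEN vs CON (12.4% and 10.2%), and 4 and 11 in LPS vs CON (6.57% and 6.12%). The median member fold change in LPS vs CON was -0.14, 0.073 with these weights, and -0.25 to 0.06 when single libraries were left out. The other medians ranged, without single libraries, from -0.11 to -0.07 for GEN against LPS and from -0.32 to -0.06 for GEN against CON. With fragment sums as the scale, the median over all genes was 0.18 for GEN against CON and 0.16 for LPS against CON, and that of the members -0.03 and 0.00. The 27 members with a range of at least 2 on the log2(FPKM + 1) scale became 42 with a pseudocount of 0.1 in place of 1 (51.2% of the members, against 21.8% of all genes tested), and 18 to 27 without single libraries, settings chosen after the data were seen. Over 29 named members in 3 comparisons, 33 of 87 fold changes turned sign under at least 1 alternative (82 of 1725 values), none of them called. The 18 fold changes given with a standard error kept their sign, which groups chosen for not overlapping favour, and 13 of them moved by over 1.5 times. The cause was not tested. Same-numbered libraries deviated together over all genes tested at -0.10 to 0.34 and over the members at -0.35 to 0.42, which does not establish a pairing and does not show that there is none. Depth limits the low members, some of which rest on fewer than 10 fragments a library.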

Other observations

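Of the 15 genes on chromosome 16 that the submitters predicted, 8 reached the filter and are outside the 82 members. The most abundant, at 2755759 to 2760877 on the plus strand, measured 12.6, 12.6 and 13.96 FPKM in GEN, 16.4, 21.0 and 14.6 FPKM in LPS, and 10.5, 15.8 and 8.68 FPKM in CON. LPS 2 was its highest library, and every LPS library lay above every GEN library. A shorter predicted gene inside it on the other strand (2756379 to 2757073) measured 3.53, 3.23 and 9.43 FPKM in GEN, 0.981, 6.65 and 3.37 FPKM in LPS, and 1.32, 4.61 and 2.61 FPKM in CON. Without a stated strand setting, fragments of these overlapping genes cannot be told apart with certainty. The longest, of 7605 bases at 1764505 to 1772825, was the steadiest at 2.16 to 3.03 FPKM over the 9 libraries. One at 705820 to 739527 ranged from 0.734 FPKM in GEN 3 to 9.28 FPKM in CON 3.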
